A study of Mus musculus with 6 samples.

Results

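Transcripts of 9 genes of glycolysis were followed in whole hearts, from WT mice and from TG-PKR1 mice. They were the hexokinases Hk1 and Hk2, the phosphofructokinases Pfkm and Pfkl, the bifunctional regulators Pfkfb1, Pfkfb2 and Pfkfb3, and the lactate dehydrogenases Ldha and Ldhb. The members were all non-control probes whose gene name in the scanner files equals one of these symbols. This gave 20 of the 41174 probes on the array, for 9 of the 27745 gene names. Of the 20 probes, 15 were among the 20000 probes with the highest median signal that were tested. All 15 were well above background on all 6 arrays, each of the 9 genes had at least 1 of them, and 0 were saturated. The other 5 probes were dim, and 0 of them were well above background on all arrays.

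TG-PKR1 mice carry prokineticin receptor 1 (PKR1), a G protein-coupled receptor for prokineticins, under the cardiomyocyte-specific alpha myosin heavy chain (αMHC) promoter. WT mice lack the transgene. All animals were 12 weeks old, and the study kept its mice on a C57BL6/J background. There were 3 hearts per group, each on an array of its own with a single dye, and the hearts are called WT A to C and TG-PKR1 A to C. The diet of these animals and the number of transgenic lines were not given in the sources used here. The comparison asked whether the cardiomyocyte transgene goes with other levels of these transcripts in the whole heart.

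Hexokinases trap glucose in the cell as glucose 6-phosphate. Phosphofructokinase then commits the sugar to glycolysis, and its strongest activator, fructose 2,6-bisphosphate, is made and degraded by the bifunctional Pfkfb enzymes. Lactate dehydrogenase converts pyruvate and lactate into each other at the end of the pathway. The adult heart takes most of its energy from fatty acids but also burns glucose and lactate, and it expresses particular isoforms of each enzyme.

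The gene for the transgene, Prokr1, was not a check of the labels, since its probe was not well above background on any of the 6 arrays. Overexpression was thus not seen with this probe. All 10 cardiomyocyte marker genes were well above background on all arrays. Arrays correlated at 0.975 to 0.987 within a group and at 0.971 to 0.992 between groups, so that the ranges overlapped. WT A, TG-PKR1 B and TG-PKR1 C were scanned with an extended range and the other 3 hearts with a single scan. WT B and TG-PKR1 A shared a slide. Over all 20000 probes the median difference, TG-PKR1 minus WT, was 0.03 on the log2 scale, with 8368 probes lower and 11632 higher.

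None of the 15 tested member probes passed an adjusted p of 0.05 in limma with Benjamini-Hochberg adjustment over 20000 probes. Over all probes, 19 were called lower (0.095%) and 0 were called higher (0%). At an unadjusted p of 0.05, limma gave 1 member probe that was lower, for Pfkfb3, and 1 that was higher, for Pfkfb2, where all probes gave 1.66% lower and 0.715% higher. The Pfkfb2 probe, but not the Pfkfb3 probe, lost this pass under some alternatives. Among these were blocking on scan mode and 75th percentile scaling in place of loess. By SAM at an estimated false discovery rate of 0%, 0 member probes were called, against 0.271% of all probes. The count of 19 was 8 without TG-PKR1 B and 0 without any of WT A, WT C, TG-PKR1 A or TG-PKR1 C. Among member probes without missing values, 1 had all TG-PKR1 hearts below all WT hearts and 2 had all TG-PKR1 hearts above, where the whole array gave 2.73% and 2.68%. Of the 9 genes, 3 had a lower mean and 6 a higher mean in TG-PKR1 hearts, with a median difference of 0.04, beside 0.03 over all probes. The median over the genes was 0.28 without TG-PKR1 B, 0.22 without WT A and -0.012 without WT C, the extremes over the hearts left out being -0.012 and 0.28. The medians over all probes were then 0.0015, 0.048 and 0.022. With quantile in place of loess, the medians over the genes and over all probes were 0.11 and 0.016. With arrays scaled to the 75th percentile they were 0.19 and -0.016.

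**Figure D1:**
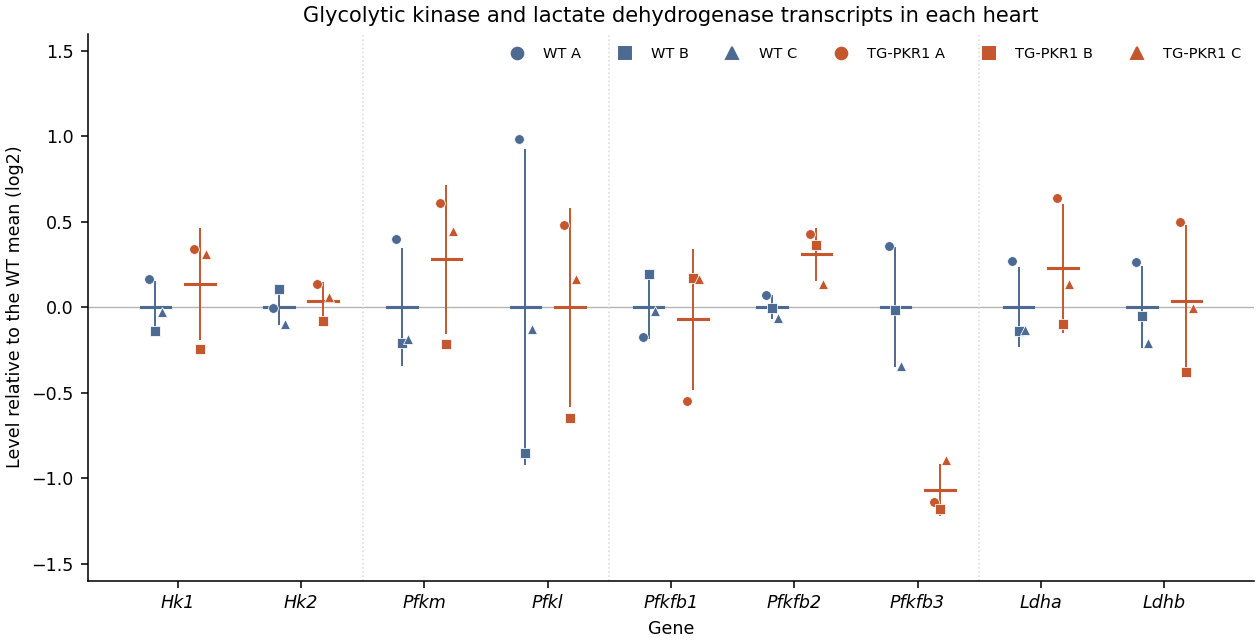
Each point is 1 heart. The vertical axis gives the gene's level relative to its WT mean on the log2 scale, averaged over its tested probes, with horizontal bars for group means and vertical lines for the SD (n = 3). Pfkfb3 was between -1.18 and -0.90 in TG-PKR1 hearts and no lower than -0.34 in WT hearts, and Pfkfb2 was the other gene of the 9 whose groups did not overlap.

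Pfkfb3 encodes the isoform of 6-phosphofructo-2-kinase/fructose-2,6-bisphosphatase with the highest kinase to phosphatase ratio, and it is known as inducible. Its normalized log2 signal was 11.18 in WT A, 10.80 in WT B and 10.48 in WT C, and 9.68, 9.64 and 9.92 in TG-PKR1 A, B and C. The groups did not overlap. The difference was -1.07 ± 0.20 (SE, n = 3 per group; 95% interval -1.53 to -0.61), which is 2.10-fold lower in TG-PKR1 hearts. The spread between hearts was an SD of 0.35 in WT and 0.15 in TG-PKR1. In limma its unadjusted p was 6.0e-04, the 53rd smallest of 20000, and its adjusted p was 0.227, so that it was not called. It had the 79th lowest difference of all probes. Under the 22 settings that were run, the difference stayed negative, from -1.40 within the extended-range arrays to -0.89 without WT A. The settings include leaving out hearts and the splits by scan mode and slide. With all 6 hearts it went from -1.21 with the processed signal to -0.96 when arrays were scaled to their 75th percentile. The adjusted p in limma went from 0.12 to 1 where a test was run. The smallest was 0.12, with quantile in place of loess normalization.

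The probe lies at chr2:11389805-11389864 of mm8, the build of the scanner files, which give no exon or strand for it. The gene's other 2 probes were dim. Both were well above background in 1 of the 3 WT hearts and in 0 of the TG-PKR1 hearts. Their level in TG-PKR1 hearts was thus known only as a bound, the groups overlapped on both, and no fold is given.

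Whole hearts hold several cell types, and in such samples fewer cells of a type and less RNA per cell cannot be told apart. Adipocyte markers moved in the same direction as Pfkfb3. Of 8 such genes, 7 were tested and all 7 were lower in TG-PKR1 hearts. As a mean over these 7 genes, the list was between -0.15 and 0.12 in WT hearts and between -1.84 and -1.41 in TG-PKR1 hearts, relative to the WT mean. All 10 tested probes had every TG-PKR1 heart below every WT heart, and 3 were called lower by limma, those of Plin1, Adipoq and Cidec. These calls were lost with scan mode as a block, where 0 probes of the array were called. The same held without WT A, WT C, TG-PKR1 A or TG-PKR1 C, left out in turn. None of the defining markers with a tested probe was at background: Adipoq, which encodes adiponectin, stayed at 10.38, 10.20 and 10.08 in TG-PKR1 hearts against 12.44, 12.00 and 11.99 in WT hearts. The Lep probe was outside the 20000. All 4 brown adipocyte genes were lower too, with a mean of -2.59 to -1.80 in TG-PKR1 hearts. Of these, Elovl3 was well above background in only 1 of the TG-PKR1 hearts, so that its part in this mean is a bound. Within WT, the order of the hearts was the same for Pfkfb3 and for the adipocyte mean, WT A above WT B above WT C. Within TG-PKR1 it was opposite, with TG-PKR1 C highest for Pfkfb3 and lowest for adipocyte markers. The macrophage and leukocyte list was also lower, by less: its mean was -0.10 to 0.15 in WT hearts and -0.22 to -0.14 in TG-PKR1 hearts, without overlap, with 5 of 6 genes lower and 0 probes called. The 10 cardiomyocyte marker genes averaged higher in TG-PKR1 hearts in 10 of 10 cases, with a median gene difference of 0.13. Over all probes, 11632 of 20000 were higher. The list's mean was 0.16, 0.06 and -0.22 in WT A to C and 0.41, -0.11 and 0.12 in TG-PKR1 A to C, with overlap. Within the extended-range arrays TG-PKR1 B and C lay below WT A, and within the single-scan arrays TG-PKR1 A lay above WT B and C. Limma gave 0 of the 16 cardiomyocyte probes at an adjusted or an unadjusted p of 0.05, as did SAM. The part of adipocyte or leukocyte RNA in the Pfkfb3 difference was not tested.

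Pfkfb2 encodes the isoform that is typical of heart and is phosphorylated downstream of insulin signaling. Its brightest probe was at 8.97, 8.80 and 8.84 in WT A to C and at 9.35, 9.40 and 9.09 in TG-PKR1 A to C. Every TG-PKR1 heart was above every WT heart. The difference was 0.41 ± 0.15 (SE, n = 3 per group; 95% interval 0.06 to 0.76), with an unadjusted p of 0.0257 and an adjusted p of 1.0 in limma. Blocking on scan mode took this probe past the unadjusted limit of 0.05 in limma. Trend and robust settings did so too, as did 75th percentile scaling in place of loess. Quantile in place of loess left it within the limit. Probe 2 of Pfkfb2 showed 7.55, 7.48 and 7.53 in WT hearts and 7.83, 8.01 and 7.65 in TG-PKR1 hearts, again without overlap, with a difference of 0.31 ± 0.15. With arrays scaled to the 75th percentile and no loess, this difference was 0.18 and the groups overlapped. Probe 3 differed by 0.20 ± 0.18 with overlapping groups (0.057 without TG-PKR1 A and 0.11 without WT C), and the dim probe 4 by 0.15 ± 0.10. On all 4 probes the TG-PKR1 mean was thus the higher, but they measure the same 6 RNA samples and are not replicates. The brightest probe was higher under all 22 settings, which include leaving out hearts and the splits. It went from 0.28 within the extended-range arrays to 0.55 on the shared slide. With all 6 hearts it went from 0.34 with normexp and quantile to 0.48 with the processed signal. This probe lies at chr1:132517091-132517150 of mm8.

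Pfkfb1, the isoform known from liver and skeletal muscle, had overlapping groups. It was at 9.88, 10.25 and 10.04 in WT hearts and at 9.51, 10.23 and 10.22 in TG-PKR1 hearts, a difference of -0.07 ± 0.22 (adjusted p = 1.0 in limma). TG-PKR1 A was the lowest of the 6 hearts, and the other TG-PKR1 hearts lay within the WT range.

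**Figure D2:**
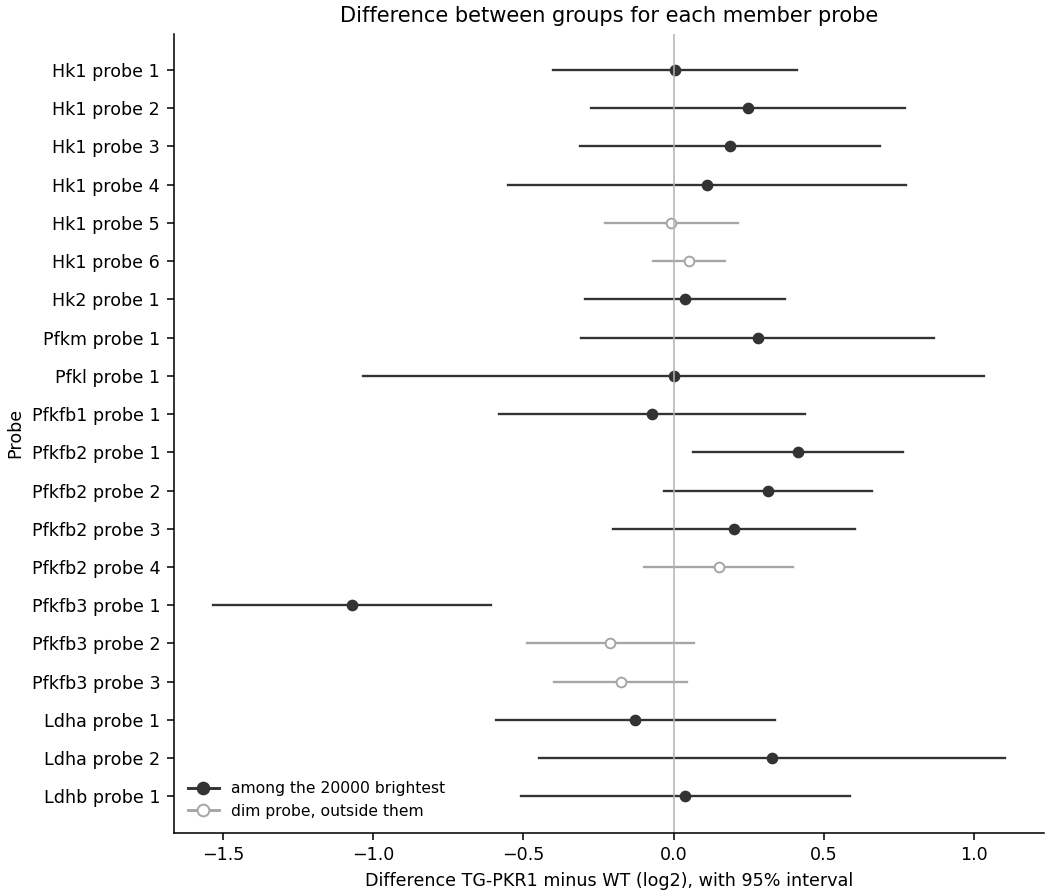
The horizontal axis gives the difference TG-PKR1 minus WT on the log2 scale for each of the 20 probes, with points for the limma estimate and lines for its unadjusted 95% interval (n = 3 per group, but 2 TG-PKR1 hearts for Ldha probe 1). The intervals of Pfkfb3 probe 1 (-1.53 to -0.61) and Pfkfb2 probe 1 (0.06 to 0.76) do not reach 0, and those of the other probes do. Open points are dim probes, and where a group was not well above background its level is only a bound.

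The promoters of Pfkfb3 and Pfkfb2 are shown because these members had the groups apart and their differences had opposite signs. Sequences are from RefSeq (GRCm38.p6), which matched all 9 genes with 20 start sites between them. Each window holds 250 bases before and 50 bases after a start site, given 5′ to 3′ on the strand of the gene. Capitals mark the letters ACGTG, the core of the element bound by hypoxia-inducible factors, on either strand, so that CACGTG, an E-box bound by Myc and ChREBP among others, is in capitals as a whole and counts as a match on both strands. The windows are chr2:11553880-11554179 and chr2:11502041-11502340, both on the minus strand, for Pfkfb3, and chr1:130715772-130716071 on the minus strand for the middle of the 3 start sites of Pfkfb2.
Pfkfb3 upstream start site: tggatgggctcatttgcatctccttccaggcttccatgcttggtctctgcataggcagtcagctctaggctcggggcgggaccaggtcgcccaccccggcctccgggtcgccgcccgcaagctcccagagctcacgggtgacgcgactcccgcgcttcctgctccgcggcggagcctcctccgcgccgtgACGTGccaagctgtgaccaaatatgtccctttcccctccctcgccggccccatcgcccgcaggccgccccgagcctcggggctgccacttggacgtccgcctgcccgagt
Pfkfb3 downstream start site: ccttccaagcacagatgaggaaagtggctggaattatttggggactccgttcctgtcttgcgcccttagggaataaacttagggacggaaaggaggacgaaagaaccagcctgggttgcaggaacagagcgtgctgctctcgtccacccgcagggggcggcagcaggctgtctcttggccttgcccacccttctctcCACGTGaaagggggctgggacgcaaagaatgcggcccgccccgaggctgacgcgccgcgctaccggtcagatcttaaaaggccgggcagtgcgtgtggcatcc
Pfkfb2 middle start site: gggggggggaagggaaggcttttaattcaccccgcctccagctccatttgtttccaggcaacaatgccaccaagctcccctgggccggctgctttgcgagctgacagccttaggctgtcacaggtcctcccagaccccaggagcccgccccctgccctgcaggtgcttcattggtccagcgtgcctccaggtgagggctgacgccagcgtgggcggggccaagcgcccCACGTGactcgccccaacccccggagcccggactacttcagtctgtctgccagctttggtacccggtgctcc

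ACGTG was found in both Pfkfb3 windows and in 2 of the 3 Pfkfb2 windows. The palindrome CACGTG was found in 1 window of each gene. Over the members, 9 of the 20 windows held ACGTG and 4 held CACGTG. Of all 32817 windows of the same length, 19.6% held ACGTG and 7.15% held CACGTG. The remaining windows with ACGTG belonged to Hk1, Hk2, Pfkm and Ldha, and no match was found in those of Pfkl, Pfkfb1 and Ldhb. A match describes letters and is not a measured site.

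The hexokinases did not differ beyond the spread between hearts. Hk2, the insulin-responsive hexokinase of muscle and heart, was at 14.56, 14.66 and 14.46 in WT A to C and at 14.70, 14.48 and 14.62 in TG-PKR1 A to C. The ranges were nearly the same, and the difference was 0.04 ± 0.15 (SE, n = 3 per group; 95% interval -0.30 to 0.37; adjusted p = 1.0 in limma). Hk2 had the smallest spread of the 9 genes in TG-PKR1 hearts, with an SD of 0.11. Hk1, the constitutive hexokinase, had 4 tested probes. Its brightest was at 13.19, 13.69 and 13.68 in WT hearts and at 13.56, 13.45 and 13.57 in TG-PKR1 hearts, a difference of 0.00 ± 0.18. The other 3 tested probes differed by 0.11 to 0.25 with overlapping groups. Of these, probe 2 was 0.12 without TG-PKR1 C and 0.48 without TG-PKR1 B, and probe 3 was 0.052 without TG-PKR1 A and 0.38 without TG-PKR1 B. The 2 dim probes of Hk1 were not well above background in any WT heart. In TG-PKR1 hearts probe 5 was well above background in 2 and probe 6 in 0. As a mean over its tested probes, Hk1 was 0.14 higher in TG-PKR1 hearts, from -0.24 in TG-PKR1 B to 0.34 in TG-PKR1 A.

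Pfkm, the muscle subunit of phosphofructokinase, was at 15.22, 14.62 and 14.64 in WT hearts and at 15.43, 14.61 and 15.28 in TG-PKR1 hearts. WT A lay just below TG-PKR1 A and C, and TG-PKR1 B was as low as WT B and C. The difference of 0.28 ± 0.26 (95% interval -0.31 to 0.87; adjusted p = 1.0 in limma) was smaller than the SD of either group, 0.34 in WT and 0.44 in TG-PKR1. It was 0.12 without TG-PKR1 A and 0.53 without TG-PKR1 B. Pfkl, the liver-type subunit, was the most variable member. It was at 11.17, 9.34 and 10.06 in WT hearts and at 10.67, 9.55 and 10.36 in TG-PKR1 hearts. Its WT hearts spanned the TG-PKR1 range at both ends. The difference was 0.00 ± 0.45, with a 95% interval from -1.03 to 1.03, the widest of the 20 probes.

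Ldhb, the subunit typical of heart that favours lactate oxidation, was at 16.92, 16.61 and 16.45 in WT hearts and at 17.16, 16.28 and 16.65 in TG-PKR1 hearts. TG-PKR1 A was the highest heart and TG-PKR1 B the lowest, and the difference was 0.04 ± 0.24 (95% interval -0.51 to 0.58; adjusted p = 1.0 in limma). Ldha, the subunit typical of skeletal muscle, had 2 tested probes that disagreed in sign. The brighter was at 15.20, 15.58 and 15.30 in WT hearts and at 15.40 and 15.07 in TG-PKR1 B and C. The spot of TG-PKR1 A was marked as an outlier by the scanner software and was left out, so that the fit used 5 hearts, with a difference of -0.13 ± 0.20. The dimmer was at 14.21, 13.02 and 13.30 in WT hearts and at 14.15, 13.28 and 14.08 in TG-PKR1 hearts, a difference of 0.33 ± 0.34 that was 0.080 without WT B and 0.67 without WT A. Neither probe passed the threshold, with an adjusted p of 1.0 for both.

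Within the groups, many members ranked the hearts alike. WT A was the highest WT heart for 7 of the 9 genes, and TG-PKR1 B was the lowest TG-PKR1 heart for 7 of the 9. Both held for 6 genes, namely Hk1, Pfkm, Pfkl, Pfkfb3, Ldha and Ldhb. Over 14 member probes without missing values both held for 8 (57.1%), and over all 19955 such probes for 26.5%. Pfkfb1 was different, with WT A and TG-PKR1 A the lowest hearts of their groups. Probes of an array share its RNA and labelling, so these counts describe 6 hearts.

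The scan modes and the shared slide gave different values for the members with a wide spread. The difference of Pfkl was -1.22 within the extended-range arrays (WT A against TG-PKR1 B and C), 0.97 within the single-scan arrays (WT B and C against TG-PKR1 A) and 1.33 on the shared slide. Pfkm was -0.28, 0.80 and 0.82 in the same order, Ldhb was -0.45, 0.63 and 0.55, and the dimmer Ldha probe was -0.53, 0.99 and 1.13. Hk2 was -0.01, 0.13 and 0.03. Pfkfb1 was 0.34, -0.63 and -0.74. Pfkfb3 was -1.40, -0.96 and -1.12, and the brightest Pfkfb2 probe was 0.28, 0.53 and 0.55, so that these 2 probes had the same sign in every split. Probe 3 of Pfkfb2 did not, at -0.033, 0.53 and 0.39, nor did Hk1 probes 2 to 4, which were at -0.11, -0.26 and -0.48 within the extended-range arrays and above 0 in the other splits. Each split holds only 1 or 2 hearts per group and gives no test.

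Isoforms of an enzyme were next compared as ratios within each heart, which removes what the isoforms share in that heart. For each of 6 pairs the log2 ratio was set to a WT mean of 0 and tested by a two-sided exact permutation test of 3 against 3 hearts, whose smallest possible p is 0.1. The ratio of Pfkfb3 to Pfkfb2 differed most. WT A, B and C were at 0.29, -0.01 and -0.28, and TG-PKR1 A, B and C at -1.56, -1.54 and -1.03. The groups did not overlap, which was fixed because every TG-PKR1 heart had lower Pfkfb3 and higher Pfkfb2 than every WT heart. The exact p of 0.1 (adjusted over the 6 pairs 0.2) was thus fixed too and adds nothing to those results. The difference was -1.38 ± 0.24 (SE, n = 3 per group), a ratio 2.60-fold lower in TG-PKR1 hearts. With the dim probes averaged in, it was -0.75 (exact p = 0.1), which is no exact difference. The dim Pfkfb3 probes are only bounds in TG-PKR1 hearts. The ratio of Pfkfb3 to Pfkfb1 was 0.53, -0.21 and -0.32 in WT hearts and -0.59, -1.35 and -1.06 in TG-PKR1 hearts, a difference of -0.998 ± 0.347 without overlap (exact p = 0.1, adjusted 0.2). It was -0.73 without WT A (exact p = 0.2). With the dim probes averaged in, it was -0.41 (exact p = 0.3), which rests on the same bounds. The ratio of Pfkfb2 to Pfkfb1 differed by 0.38 ± 0.33 with overlap (exact p = 0.4, adjusted 0.6), and by 0.084 without TG-PKR1 A and 0.59 without TG-PKR1 C.

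**Figure D3:**
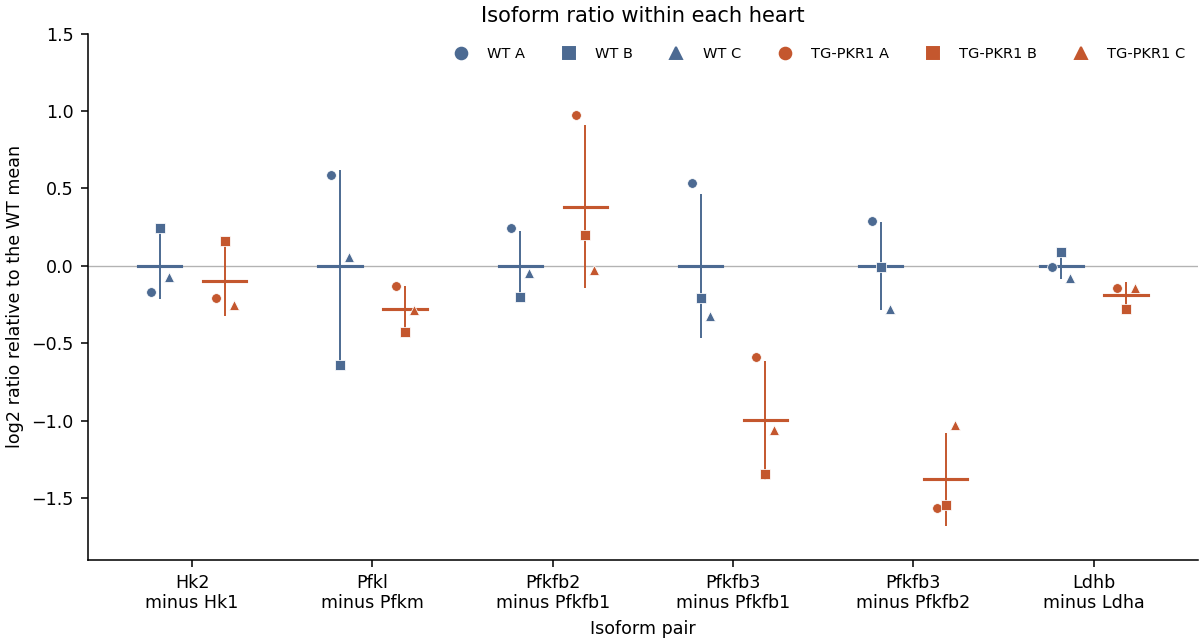
Each point is the log2 ratio of the named isoforms in 1 heart relative to the WT mean of 0, with horizontal bars for group means and vertical lines for the SD (n = 3). The Pfkfb3 ratios lie below the WT hearts in all TG-PKR1 hearts, from -1.56 to -0.59, and the ratio of Ldhb to Ldha does so by a smaller step, from -0.28 to -0.14.

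The ratio of Ldhb to Ldha had the smallest spread of the pairs. It was -0.01, 0.09 and -0.08 in WT hearts and -0.14, -0.28 and -0.14 in TG-PKR1 hearts, a difference of -0.19 ± 0.07 without overlap (exact p = 0.1, adjusted 0.2). The step is 1.14-fold, and Ldha in TG-PKR1 A rests on its dimmer probe alone. With the brightest probe of each gene, which leaves out TG-PKR1 A, the difference was -0.06. It was -0.044 with outlier spots kept (exact p = 0.8), -0.085 without WT B (exact p = 0.5) and -0.015 in the authors' own table (exact p = 0.9). The ratio of Hk2 to Hk1 differed by -0.10 ± 0.18 (exact p = 0.5, adjusted 0.6) and that of Pfkl to Pfkm by -0.28 ± 0.37 (exact p = 0.6, adjusted 0.6), both with overlapping groups. The Hk2 to Hk1 ratio was 0.03 with the brightest probe of each gene and the Pfkl to Pfkm ratio 0.01 without WT A.

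Other genes of the pathway were taken as lists, shown in the plot of list probes. In the lists of other isoforms, other glycolytic steps, lactate and pyruvate fate and enzymes that oppose glycolysis, 0 probes were called by limma, in either direction, or by SAM. Of the other isoforms of the same enzymes, 5 of 7 genes had a tested probe, 4 with a higher and 1 with a lower mean, and a median difference of 0.14. At an unadjusted p of 0.05, limma gave 1 of the 9 probes, for Ldhd, as higher. Ldhd, the mitochondrial D-lactate dehydrogenase, differed by 0.46 ± 0.19 on its dimmer probe (0.35 to 0.64 with 1 heart left out) and by 0.10 on the brighter. Pfkfb4, the remaining bifunctional isoform, differed by -0.23 ± 0.16, and by -0.11 without TG-PKR1 C. Both had overlapping groups on these probes.

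Of the other glycolytic steps, 12 of 17 genes had a tested probe, 7 with a higher and 5 with a lower mean. The median difference was 0.10 and the range -0.26 to 0.25. The list's mean was between -0.15 and 0.14 in WT hearts and between -0.31 and 0.28 in TG-PKR1 hearts, with TG-PKR1 B lowest, so the WT range lay inside the TG-PKR1 range. Pgam1, a phosphoglycerate mutase, differed by -0.26 ± 0.23 and Tpi1, triosephosphate isomerase, by 0.25 ± 0.17, both with overlapping groups. Pgam1 was -0.068 without WT C, -0.093 without TG-PKR1 B and -0.44 without WT B, and Tpi1 was 0.097 without TG-PKR1 C. At an unadjusted p of 0.05, 0 of the 19 probes passed in limma.

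Genes that decide the fate of lactate and pyruvate gave 26 tested probes for 16 genes, 11 with a higher and 5 with a lower mean and a median of 0.04. At an unadjusted p of 0.05, limma gave 1 lower probe and 2 higher probes. Pdk4, the pyruvate dehydrogenase kinase that shuts off glucose oxidation when fatty acids are used, was at 13.82, 13.51 and 14.25 in WT hearts and at 13.63, 12.73 and 13.11 in TG-PKR1 hearts. The groups overlapped by TG-PKR1 A, and the difference was -0.70 ± 0.27 (unadjusted p = 0.0293, adjusted p = 1.0 in limma). With 1 heart left out it was -0.94 to -0.49. Within the extended-range arrays it was -0.90, within the single-scan arrays -0.25 and on the shared slide 0.13, so that the sign turned. Pdha1, a subunit of pyruvate dehydrogenase, differed by 0.59 ± 0.24 on 1 probe (0.44 to 0.87 with 1 heart left out) and by 0.26 on its other. Dld, the complex's dihydrolipoamide dehydrogenase, differed by 0.56 ± 0.16 on its dimmest probe, without overlap, and by 0.11 and 0.01 on its brighter probes. The lactate carrier Slc16a1 differed by 0.27, -0.01 and 0.41 on 3 probes.

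Of the enzymes that oppose glycolysis, 5 of 8 genes had a tested probe, and the median difference was -0.03. At an unadjusted p of 0.05, limma gave 1 of 6 probes, for Pcx, as lower. Pcx, pyruvate carboxylase, was at 12.27, 12.21 and 11.93 in WT hearts and at 11.94, 11.56 and 10.76 in TG-PKR1 hearts. TG-PKR1 A just reached the lowest WT heart, and the difference was -0.72 ± 0.28 (adjusted p = 1.0 in limma). It was -0.39 without TG-PKR1 C and -0.98 without TG-PKR1 A. G6pc3, a glucose 6-phosphatase, differed by 0.29 ± 0.23 and Tigar, which degrades fructose 2,6-bisphosphate as the phosphatase side of the Pfkfb enzymes does, by 0.27 ± 0.21, both with overlap on these probes. A brighter Tigar probe differed by 0.23 ± 0.15 without overlap. With 1 heart left out, G6pc3 and the dimmer Tigar probe ranged from 0.17 (without WT C) to 0.49 (without WT A) and from 0.12 (without TG-PKR1 C) to 0.44 (without TG-PKR1 B). G6pc3 was -0.23 within the extended-range arrays, 0.73 within the single-scan arrays and 0.69 on the shared slide. Pcx is abundant in adipocytes, whose markers were lower in TG-PKR1 hearts as given for Pfkfb3, and their part in its value was not tested.

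A last list held factors known to control the members, with Tkt, a transketolase that links the pentose phosphate pathway with glycolysis. Of 28 tested probes for 16 genes, limma called 0, with 2 lower and 0 higher at an unadjusted p of 0.05 and 1 called by SAM, and 11 genes had a higher and 5 a lower mean, with a median of 0.04. Tkt had the widest difference. Its brightest probe was at 14.05, 12.68 and 13.67 in WT hearts and at 11.74, 11.14 and 11.28 in TG-PKR1 hearts, without overlap, a difference of -2.08 ± 0.33 (adjusted p = 0.111 in limma). Over the settings run for this probe, the difference ranged from -2.48 without WT B to -1.79 without WT A. With all 6 hearts it lay between -2.17 and -1.93. The adjusted p in limma went from 0.03 to 1 over the settings, and SAM called the probe. It was called by limma only without WT B. The dimmer Tkt probes, both outside the 20000, differed by -0.55 and 0.08. Mlxipl, which encodes the glucose-responsive factor ChREBP, differed by -0.42 ± 0.16 on its dimmer probe, without overlap, and by -0.20 on the brighter. Over the ways of processing the dimmer probe went from -0.70 to -0.29. In the same TG-PKR1 hearts the mean of the adipocyte markers was -1.84 to -1.41 relative to WT. That of the brown adipocyte markers, which holds Elovl3 partly as a bound, was -2.59 to -1.80. The part of adipocyte RNA in the Tkt and Mlxipl values was not tested. Ppargc1a, a coactivator of mitochondrial genes, differed by 0.49 ± 0.28 with overlap, and by 0.21 without WT A and 0.31 without TG-PKR1 B. Its other tested probe differed by 0.43, also with overlap. Hif1a differed by 0.05 and the brightest Myc probe by 0.01.

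**Figure D4:**
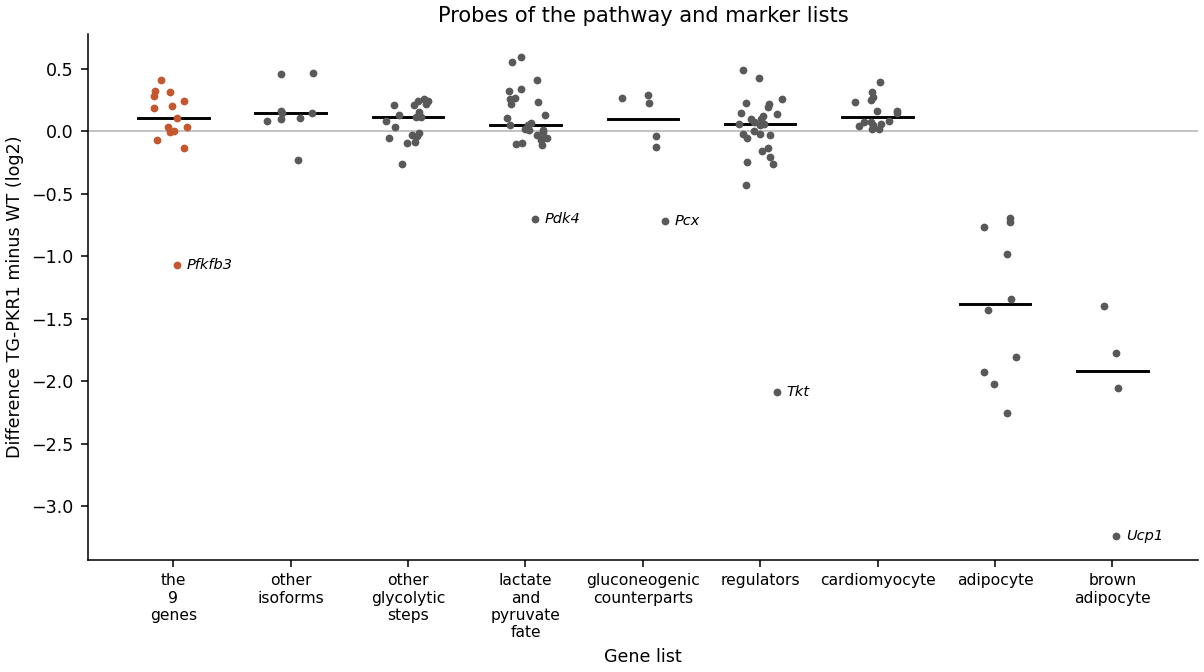
Each point is 1 tested probe, the vertical axis gives its difference TG-PKR1 minus WT on the log2 scale, and the black bars are medians over the probes of a list. Farthest below 0 are Pfkfb3 (-1.07) among the 9 genes, Pdk4 (-0.70) and Pcx (-0.72) in the pathway lists and Tkt (-2.08) among the regulators, and farthest above 0 are Pdha1 (0.59) and Dld (0.56), while the adipocyte lists lie below 0 throughout.

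The genes whose level over the 6 hearts was most like that of Pfkfb3 were Arl5c (r = 0.985), Fabp4 (r = 0.985), Gpat4 (r = 0.982), Rnase2a (r = 0.974) and Fam83h (r = 0.967). These are Pearson coefficients over 6 hearts that form 2 groups with Pfkfb3 apart, so they describe the pattern and carry no test. Fabp4 is the fatty acid binding protein of adipocytes and endothelium and belongs to the adipocyte list. Its probe differed by -0.69, less than Pfkfb3, and Gpat4, an acyltransferase of triglyceride synthesis, by -0.41. Arl5c, Rnase2a and Fam83h differed by only -0.13, -0.13 and -0.17. Among the members, the 2 brighter Pfkfb2 probes had the lowest coefficients with Pfkfb3, -0.82 and -0.83, and those of Hk2, Pfkm, Ldhb and Pfkfb1 lay between -0.15 and 0.11.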

How the data were processed

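Each of 6 hearts, 3 WT and 3 TG-PKR1, was hybridized to its own Agilent array with Cy3 as the only dye. The deposited scanner files hold the intensity of every spot from Agilent Feature Extraction 9.5.1.1 and are not normalized between arrays. The authors also deposited log2 values, for which they corrected arrays by LOWESS to a median profile, averaged replicate probes and kept the probes with the highest medians. All value columns were matched to a heart.

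Median signals were taken without background subtraction, which the methods do not name. Controls and outlier-marked spots were dropped. Loess (span 0.3, 4 iterations) brought the arrays to their median profile before spots of a probe were averaged. The 20000 probes with the highest median were tested by limma 3.58.1 in R 4.3.3, with Benjamini-Hochberg adjustment over all of them at 0.05. A gene's value per heart is the mean of its tested probes, each relative to its WT mean. SAM used all 20 assignments. Probe positions are those of mm8 in the scanner files, and promoters are from RefSeq GRCm38.p6. Levels of different probes were not compared. The procedure was tested on simulated data, and the outcome is not given here.

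Members, gene lists and tests were chosen with earlier results of these data known. The named genes are all members with every probe, and in each other list every called gene and the 3 genes with the widest difference among tested probes that 3 or more arrays had well above background. Of the genes this rule names, 2 are not reported here. Other values in the text, of further probes and genes, were chosen after their values were seen. Marker lists are given as counts. Skeletal muscle, endothelial, macrophage and leukocyte, fibroblast and erythroid markers had median gene differences of 0.06, 0.02, -0.14, -0.06 and -0.13, with 0 probes called by limma in each, 0 at an unadjusted p of 0.05 and 0 by SAM. Alternatives changed 1 choice at a time, except that the processed signal came with its own scaling, normexp with quantile normalization, trend with robust settings, and the authors' own table with their normalization, averaging and probe choice. They are given with the closing observations. The number of arrays limits the precision.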

Additional observations from a re-analysis of the deposited data

How the results depend on the processing

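The alternatives left 0 member probes called by limma, by SAM or at an adjusted p of 0.1. Pfkfb3 stayed lower and the brightest Pfkfb2 probe higher under every alternative run. The ratio of Pfkfb3 to Pfkfb2 stayed lower, from -1.65 to -1.14 without the dim Pfkfb3 probes. The value of -0.75 with dim probes averaged in rests on bounds and is no exact difference. The ratio of Ldhb to Ldha was negative throughout, from -0.26 to -0.02, but its exact p went from 0.1 to 0.4 with quantile normalization, with and without normexp, and to 0.9 in the authors' own table. Sign changes of the members and their ratios are given next. Those within the splits by scan mode and slide stand beside the members or at the end, and those of other genes are not listed in full. The causes were not tested. The number of probes called lower over the array, 19, was 29 with scaled processed signals, 33 with quantile in place of loess, 31 with trend and robust settings and 54 with SAM. It was 2 with loess on the profile axis, an alternative chosen after seeing the data, and 0 when arrays were scaled to their 75th percentile, when all probes or only those above background on at least 3 arrays were tested, in the authors' own table and with scan mode as a block. Leaving out hearts gave 0 to 19.

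With the processed signal, Hk1 probe 1 was -0.076, Pfkl 0.038 and the brighter Ldha probe 0.0084. With normexp and quantile they were -0.015, 0.0067 and 0.024, and with quantile alone -0.016, 0.0028 and 0.014. Pfkl was 0.0022 with the mean signal and 8.8e-05 with outlier spots kept. In the authors' own table Hk1 probe 1 was -0.013, and the brighter Ldha probe was 0.030 with scan mode as a block. With 75th percentile scaling alone, Hk1 probe 4 was -0.10, Pfkl 0.056, Pfkfb1 0.040, Pfkfb2 probe 3 -0.059, the brighter Ldha probe 0.40 and the ratio of Hk2 to Hk1 0.11. That ratio was 0.034 with the brightest probes. Without each heart in turn, Hk1 probe 1 ranged from -0.16 to 0.089, Hk1 probe 4 from -0.070 to 0.40, Hk2 from -0.012 to 0.10, the brighter Ldha probe from -0.29 to 0.038, Ldhb from -0.19 to 0.25, Pfkfb1 from -0.19 to 0.17, Pfkl from -0.43 to 0.49, the ratio of Hk2 to Hk1 from -0.23 to 0.022 and that of Pfkl to Pfkm from -0.60 to 0.011.

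On the single-scan arrays and the shared slide Hk1 probe 1 was -0.13 in both, and within the extended-range arrays it was 0.32. Within the extended-range arrays the brighter Ldha probe was 0.030, the median over the 9 genes was -0.25, and the ratio was 0.13 for Hk2 to Hk1, -0.94 for Pfkl to Pfkm, -0.16 for Pfkfb2 to Pfkfb1 and -1.74 for Pfkfb3 to Pfkfb1. Within the single-scan arrays the median over the 9 genes was 0.46, and the ratio was 0.16 for Pfkl to Pfkm, 1.096 for Pfkfb2 to Pfkfb1 and -0.32 for Pfkfb3 to Pfkfb1. On the shared slide the median was 0.48, and the ratio was -0.45 for Hk2 to Hk1, 0.52 for Pfkl to Pfkm, 1.17 for Pfkfb2 to Pfkfb1 and -0.38 for Pfkfb3 to Pfkfb1. Slide as a random block could not be fitted. No paired analysis was possible because no label ties a WT mouse to a TG-PKR1 mouse. With 3 hearts per group the exact test cannot go below 0.1, and the dim probes limit what is known of Pfkfb3 beyond 1 probe.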
